A study of Mus musculus with 9 samples.

Results

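Whole kidneys of Col4a3 -/- mice that had been given PBS (KO PBS, 3 libraries) were compared with kidneys of wild type mice (WT, 3 libraries) across all expressed genes. The libraries were chosen by their labels, replicates 1 to 3 of each group, and make up 6 of the 9 libraries of the series; the other 3 come from Col4a3 -/- mice given antimiR-21, an inhibitor of the microRNA miR-21, and entered the model only to estimate the spread. All mice were of strain 129X1/SvJ and 9 weeks old, and the labels give the knockout allele no further detail. The WT mice carry the label no treatment and were not described as injected, so that genotype and injection of PBS were compared together and cannot be told apart. RNA-seq libraries were made with the TruSeq RNA v2 kit from 150 ng of total RNA. The labels do not say that the replicates of a group are separate animals, and the p-values therefore measure the spread between these libraries.

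The product of Col4a3 is one of the type IV collagen chains; it joins the alpha-4 and alpha-5 chains in the mature glomerular basement membrane, and its loss is a mouse model of Alport syndrome. In this disease the filter of the glomerulus is built from other collagen chains, leaks protein, and is followed by scarring of the interstitium and loss of tubular function. The kidney tubule reabsorbs sugars, amino acids, phosphate and water through segment-specific transporters and draws its energy mainly from mitochondria, so that a whole-kidney library is largely a library of tubule cells. In such bulk libraries, fewer cells of a type and less RNA per cell cannot be told apart.

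Each of the 9 libraries held between 26448275 and 31786624 expected counts, and 17315 of 22637 gene symbols passed the filter on low counts and were tested. The 20 most abundant genes of a library took 21.1% to 22.1% of its counts in WT and 14.1% to 16.1% in KO PBS. In a principal component analysis the first component held 61.2% of the variance and separated the groups, with WT between -81.5 and -50.8 and KO PBS between 55.9 and 87.5. Markers of the kidney tubule (Slc12a1, Lrp2, Umod) and of the podocyte (Nphs1, Podxl) were present in every library. The sexes were not balanced. The summed level of Y-linked genes was 0.928 CPM (counts scaled to a common library size, with TMM factors) in WT 1, 117.7 in WT 2 and 1.49 in WT 3, against 102, 110 and 105 in KO PBS 1 to 3, and the sex letters in the submitters' library codes of the WT libraries match this. WT 1 and WT 3 are thus female and WT 2 and all KO PBS libraries male, so each result below rests on a comparison in which WT 2 is the only WT library of the same sex as KO PBS.

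Col4a3 itself was measured at 371, 257 and 316 CPM in WT 1 to 3 and at 44.3, 94.3 and 60.2 in KO PBS 1 to 3. All knockout libraries lay below all WT libraries, and the log2 fold change was -2.25 ± 0.33 (SE; edgeR quasi-likelihood test, Benjamini-Hochberg adjusted p = 0.0025). Reads over the gene were reduced and not absent in the knockout, and the labels do not say which part of the gene was removed.

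At an edgeR adjusted p under 0.05, 4226 genes differed, which is 24.4% of those tested. Of these, 2521 (14.6%) were higher and 1705 (9.85%) lower in KO PBS. Libraries of the groups did not overlap in 7457 genes (43.1%). The median log2 fold change over all genes tested was -0.03, and 2524 genes (14.6%) had a 95% interval that lay entirely within -0.5 and 0.5. The higher genes changed by more: 1004 of them reached 2 on the log2 scale and 139 reached 4, against 218 and 25 lower genes. The lower genes were the more abundant ones. Among the 548 genes with a mean of at least 8 log2 CPM, 32.1% were lower and 10.6% higher, whereas among the 3225 genes under 1 log2 CPM 5.52% were lower and 16.7% higher. The genes called lower held 39.2%, 36.0% and 38.6% of all CPM in WT 1 to 3 and 17.0%, 23.01% and 21.9% in KO PBS 1 to 3. The genes called higher held 4.67%, 5.05% and 5.02% in WT and 19.9%, 15.2% and 15.1% in KO PBS. KO PBS 1 lay farthest from WT in 56.5% of the higher and 70.4% of the lower genes. Without KO PBS 1 the counts were 1756 higher and 667 lower. The lower count was also reduced by over 1.5 times without KO PBS 2 (773), KO PBS 3 (1136), WT 1 (973) or WT 3 (978). When libraries were scaled by their size alone, 3753 genes were higher and 904 lower and the median over all genes moved to 0.25, so that 80.6% of calls were higher in place of 59.7%.

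**Figure D1:**
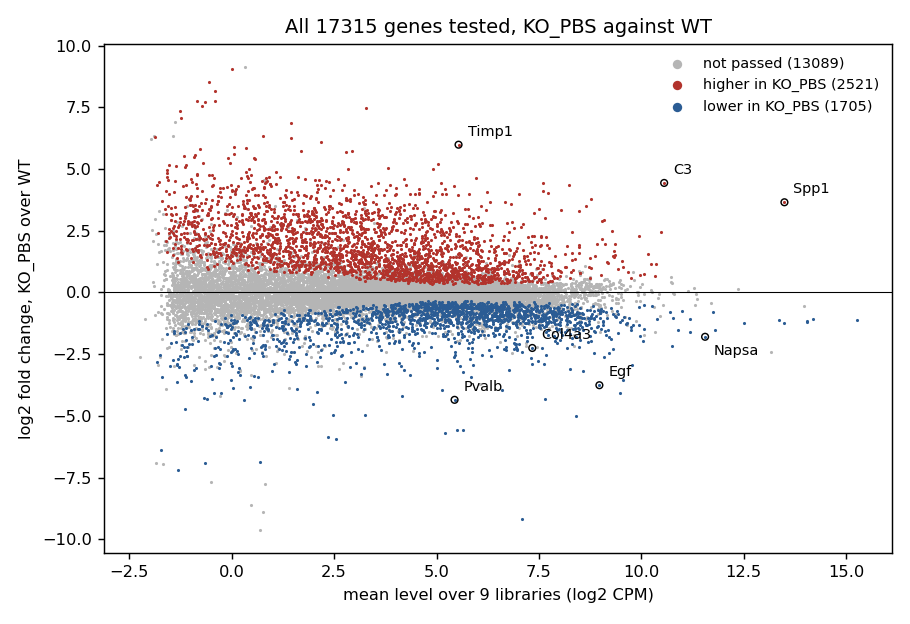
Log2 fold change of KO PBS over WT (y axis) against the mean level over the 9 libraries in log2 CPM (x axis), 1 point for each of the 17315 genes tested, red for the 2521 called higher, blue for the 1705 called lower and grey for the rest. The red points reach larger fold changes, and the blue points are more frequent among abundant genes.

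Sex was then held apart in 2 ways, with sex as a covariate and with the male libraries only. In both, WT 2 alone stands for male WT, and its spread is assumed to be like that of the other libraries. With sex as a covariate, edgeR called 0 genes in either direction at an adjusted p under 0.05, with a smallest adjusted p of 0.0553, while 2548 genes were higher and 1841 lower at an unadjusted p under 0.05. DESeq2 with the same covariate called 1713 genes higher and 704 lower, and limma on the deposited log2 values 982 and 84. With the male libraries only, edgeR again called 0 genes in either direction, with a smallest adjusted p of 0.0734 and with 2677 higher and 1719 lower at an unadjusted p under 0.05; DESeq2 called 1684 and 590, and limma 848 and 58. Directions were nearly all kept: of the 4226 genes, 7 changed sign with the sex covariate and 3269 had the same sign and an unadjusted p under 0.05. These genes were called with WT 2 and the same KO PBS libraries in the fit, so that kept directions are largely built in. The same limit holds for the comparison with WT 2. Against WT 2 alone, all KO PBS libraries were higher for 2519 of the 2521 genes called higher and lower for 1689 of the 1705 called lower. The median log2 difference from WT 2 was 1.52 for the former and -0.93 for the latter, against medians of 1.69 and -1.04 from all WT libraries.

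Genes known to differ between the sexes in mouse kidney show this imbalance in single genes. Xist, the RNA that coats the inactive X chromosome of females, is listed under the identifier NR_001463 and was at 552, 3.97 and 662 CPM in WT 1 to 3 and at 0.877, 0.634 and 0.559 in KO PBS. Its log2 fold change of -9.18, the most negative among the genes called lower with a mean of at least 5 log2 CPM, followed the sex of the WT libraries. Ugt1a2, a glucuronosyltransferase, was at 1742, 14.2 and 1137 CPM in WT and at 65.1, 13.1 and 13.1 in KO PBS: it fell by 4.98 on the log2 scale against all WT libraries, but its fitted log2 fold change was 1.11 with the sex covariate (edgeR adjusted p = 0.53). The 12 kidney genes listed as higher in males had a median log2 fold change of -1.31, which became -2.41 with the sex covariate, where DESeq2 called 7 of them lower and 1 higher. Against all WT libraries 1 member rose and 0 fell. It was Cyp4a12b, at 4.43, 16.8 and 5.43 CPM in WT and at 44.4, 27.6 and 46.0 in KO PBS. Kap, an androgen-regulated protein of the proximal tubule from the same list, was at 8301, 29919 and 8992 CPM in WT and at 342, 5409 and 3168 in KO PBS. It did not pass in the comparison with all WT libraries (log2 fold change -2.40, edgeR adjusted p = 0.114), although the 3 male KO PBS libraries lay below both female WT libraries. The 9 genes listed as higher in females had a median of -2.99, and -0.78 with the covariate. Slc22a7, an organic anion transporter of this list, fell by 5.55 and was similar in all WT libraries (179, 119 and 99.4 CPM, against 0.685, 5.57 and 2.27 in KO PBS).

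**Figure D2:**
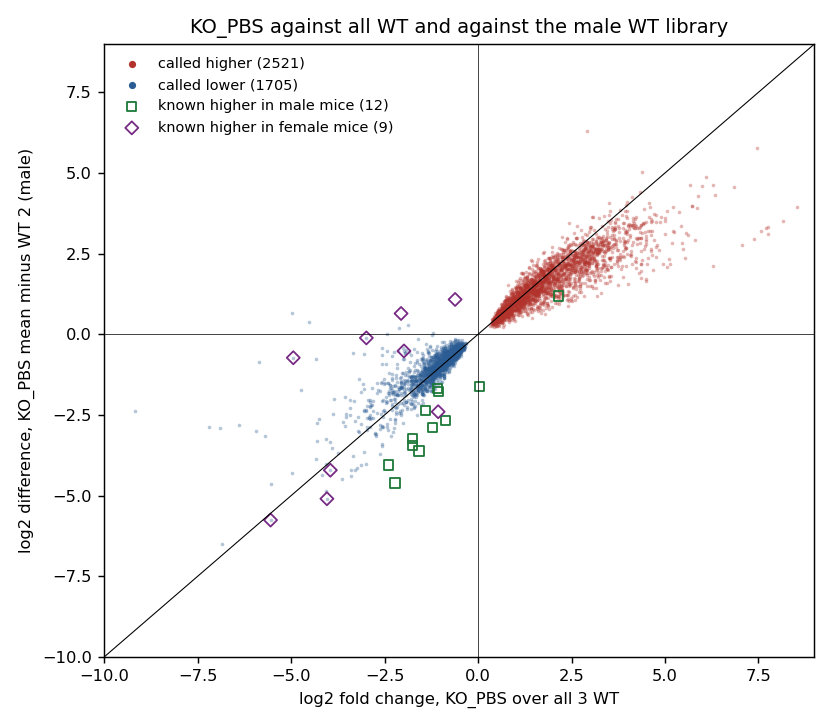
Log2 difference of the KO PBS mean from the male library WT 2 (y axis) against the log2 fold change from all 3 WT libraries (x axis) for the 2521 genes called higher (red) and the 1705 called lower (blue), with known male-higher (green squares, 12) and female-higher genes (purple diamonds, 9) drawn whether called or not. Most called genes lie near the line of equality, while most male-higher genes lie below it and several female-higher genes above it.

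Spp1 and C3 gained most in CPM. Spp1, which encodes osteopontin, was at 1594, 1988 and 1236 CPM in WT and at 26560, 15719 and 18409 in KO PBS, a log2 fold change of 3.65 ± 0.44 (SE; edgeR adjusted p = 0.00149). C3, the central complement component, was at 62.4, 220 and 62.5 CPM in WT and at 2856, 1747 and 2875 in KO PBS (4.44 ± 0.66). No library of one group reached the other group in either gene, and WT 2 was the WT library nearest to the knockout in both. Cd74, Clu, Ctsd, Col3a1, Sparc, H2-Eb1, Tmem176b and Apoe completed the 10 genes with the largest gain. Clu encodes the secreted chaperone clusterin and rose by 2.27 on the log2 scale, Sparc, a matricellular glycoprotein, by 2.48, and Tmem176b by 1.15. Apoe, a lipid carrier, was at 527, 409 and 1113 CPM in WT and 1531, 1427 and 1639 in KO PBS and was called in 9 of 19 re-analyses of the data with 1 choice changed (scaling, test, filter, covariate or a library left out).

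Mitochondrially encoded transcripts were among the 10 genes that lost most in CPM. Cox2, a subunit of cytochrome c oxidase, was at 22865, 22934 and 24451 CPM in WT and 8996, 12377 and 9787 in KO PBS. Atpase6 (log2 fold change -1.18) and mt-Nd4 (-1.25) behaved alike, and each of these 3 was called in 8 of 19 re-analyses, losing the call when any WT or KO PBS library was left out. The identifiers DQ539915, X57780, AK018753 and AK163440, also among the 10, are not paired with a gene symbol in the deposited tables. The largest loss was that of DQ539915, at 59209, 50986 and 49843 CPM in WT and 19270, 29452 and 25955 in KO PBS, called in 5 of 19 re-analyses. Napsa, an aspartic protease of the proximal tubule, fell by 1.79, from 5115, 4515 and 5600 CPM to 1139, 1632 and 1618. Slc34a1, the main sodium-phosphate cotransporter of the proximal tubule, was at 3842, 3095 and 3973 CPM in WT and 493, 1377 and 1741 in KO PBS, and was called in 10 of 19 re-analyses.

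Ranked by fold change among abundant genes, the higher genes were Timp1, Ltbp2, Serpina3n, Ccl2, C3, Vcam1, Lcn2, Cd44, Socs3 and Col1a1. Timp1, an inhibitor of matrix metalloproteinases, was at 0.759, 3.61 and 0.643 CPM in WT and 195, 74.5 and 50.2 in KO PBS (5.99 ± 0.84, edgeR adjusted p = 0.0021). Vcam1, an adhesion molecule for leukocytes, rose from 8.73, 28.7 and 6.88 CPM to 275, 274 and 403, and Lcn2, an iron-siderophore binding protein released by injured tubules, from 4.98, 64.0 and 11.4 to 831, 532 and 288. In Timp1, Ltbp2, Serpina3n, Ccl2, Vcam1, Lcn2, Cd44 and Socs3, WT 2 was the highest WT library. The lower genes were, besides Xist, Bhmt, Slc22a7, 9030619P08Rik, Pvalb, Hpd, Dnase1, mKIAA1422, Slc22a9 and Egf. Bhmt, which remethylates homocysteine with betaine, was at 107, 15.2 and 184 CPM in WT and 0.548, 3.04 and 2.39 in KO PBS. Its log2 fold change of -5.69 was -2.94 with the sex covariate (edgeR adjusted p = 0.116). Dnase1, a secreted nuclease, was at 744, 2040 and 1800 CPM in WT and 23.1, 102 and 147 in KO PBS, and Egf, the precursor of epidermal growth factor, at 1808, 694 and 760 and at 11.9, 108 and 121. KO PBS 1 was the lowest library in all 9 of these genes.

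Some genes were close to absent in 1 group. Of the genes called higher, 124 had at most 3 counts in every WT library, and of those called lower 9 had at most 3 in every KO PBS library. With so few counts no fold is given here. Clec6a, a C-type lectin receptor of myeloid cells, was at 0.0844, 0.0802 and 0 CPM in WT and 6.58, 3.84 and 3.23 in KO PBS. Krt17, a keratin of stratified epithelium, was at 0.0422, 0.0401 and 0.0402 and at 4.85, 2.30 and 0.714, and Ccl20, a chemokine, at 0, 0.0802 and 0.0804 and at 2.93, 1.87 and 2.55. 1100001E04Rik, named Arhgap36 in RefSeq, reached 9.92, 1.84 and 3.88 CPM, and OTTMUSG00000015750 4.38, 4.44 and 2.24. In the other direction, Scrg1 was at 4.01, 0.722 and 0.483 CPM in WT and 0, 0.0334 and 0 in KO PBS. Meox2, a homeobox factor, was at 0.127, 11.3 and 0.845 in WT, so that its WT level came mostly from WT 2.

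**Figure D3:**
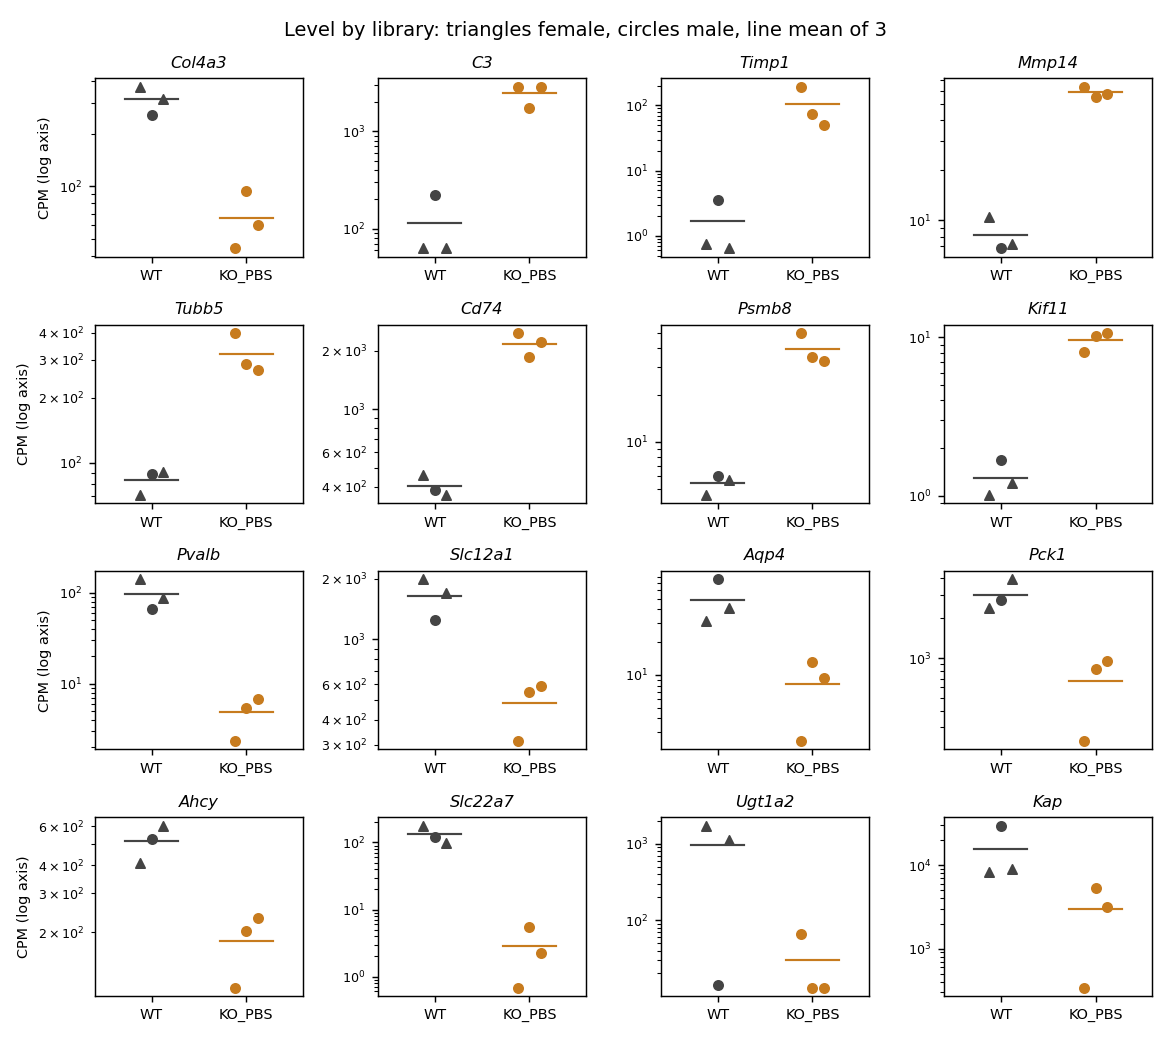
CPM on a log axis for 16 genes in the 3 WT (grey) and 3 KO PBS (orange) libraries, with triangles for female and circles for male libraries and a line at the mean of 3. Groups overlap in Ugt1a2 and in no other panel, and in Ugt1a2 and Kap the male library WT 2 stands far from the female WT libraries.

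Some basement membrane components other than collagen IV rose. Of 18 laminins, nidogens, basement membrane proteoglycans and related components, 7 rose and 0 fell (median log2 fold change 0.46, against -0.03 over all genes tested; DESeq2 with sex as a covariate called 6 higher). Col15a1, a proteoglycan-collagen of the basement membrane zone, rose from 48.0, 27.1 and 31.9 CPM to 194, 248 and 214 (2.61 ± 0.36, edgeR adjusted p = 0.00206). Col18a1 rose by 1.40, Nid1, which links laminin to type IV collagen, by 1.70, and Agrn by 1.03. The laminin chains were split. Lama5 and Lama2 passed with 0.79 and 1.22, although Lama5 was called in 12 and Lama2 in 10 of 19 re-analyses. The glomerular chain Lamb2 (0.06) and Lamc1 (0.51) did not pass.

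Receptors for this matrix followed. Of 21 integrins and other matrix receptors, 10 rose and 0 fell (median 0.66; between 4 and 11 rose when any library was left out, and 6 in DESeq2 with the sex covariate). Cd44, the hyaluronan receptor, had the largest change, from 1.81, 6.94 and 1.77 CPM to 63.5, 63.9 and 81.0 (4.30 ± 0.60). Sdc1, a heparan sulfate proteoglycan of epithelia, rose by 1.81, the fibronectin receptor chain Itga5 by 1.61 and the collagen receptor Ddr1 by 1.10. The podocyte integrin chain Itga3 had a log2 fold change of 0.47 and the mesangial chain Itga8 one of -0.32, and neither passed.

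The enzymes that process collagen rose in 13 of 19 cases, with 0 lower (median 0.81; 12 higher and 1 lower in DESeq2 with the sex covariate). Lox, which cross-links collagen and elastin, rose from 2.78, 5.17 and 4.18 CPM to 39.5, 33.3 and 23.7 (2.99 ± 0.38, edgeR adjusted p = 0.00165). Loxl1 and Loxl2 of the same family rose by 2.58 and 2.57, the procollagen N-proteinase Adamts2 by 2.46 and the collagen chaperone Serpinh1 by 1.5. Loxl4 had a log2 fold change of -1.35 and did not pass. Matrix proteases and their inhibitors moved in the same direction: 17 of 26 rose and 0 fell (median 1.75; 14 in DESeq2 with the sex covariate, which also called 1 lower). Mmp14, a membrane-anchored metalloproteinase, rose from 10.5, 6.78 and 7.24 CPM to 64.0, 55.2 and 58.1. Mmp12, the macrophage elastase, rose from 12.3, 11.5 and 12.5 to 43.5, 41.0 and 39.3. The plasminogen activators Plat (-0.28) and Plau (-0.03) did not pass, while the receptor Plaur passed with 1.37 and was called in 7 of 19 re-analyses.

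**Figure D4:**
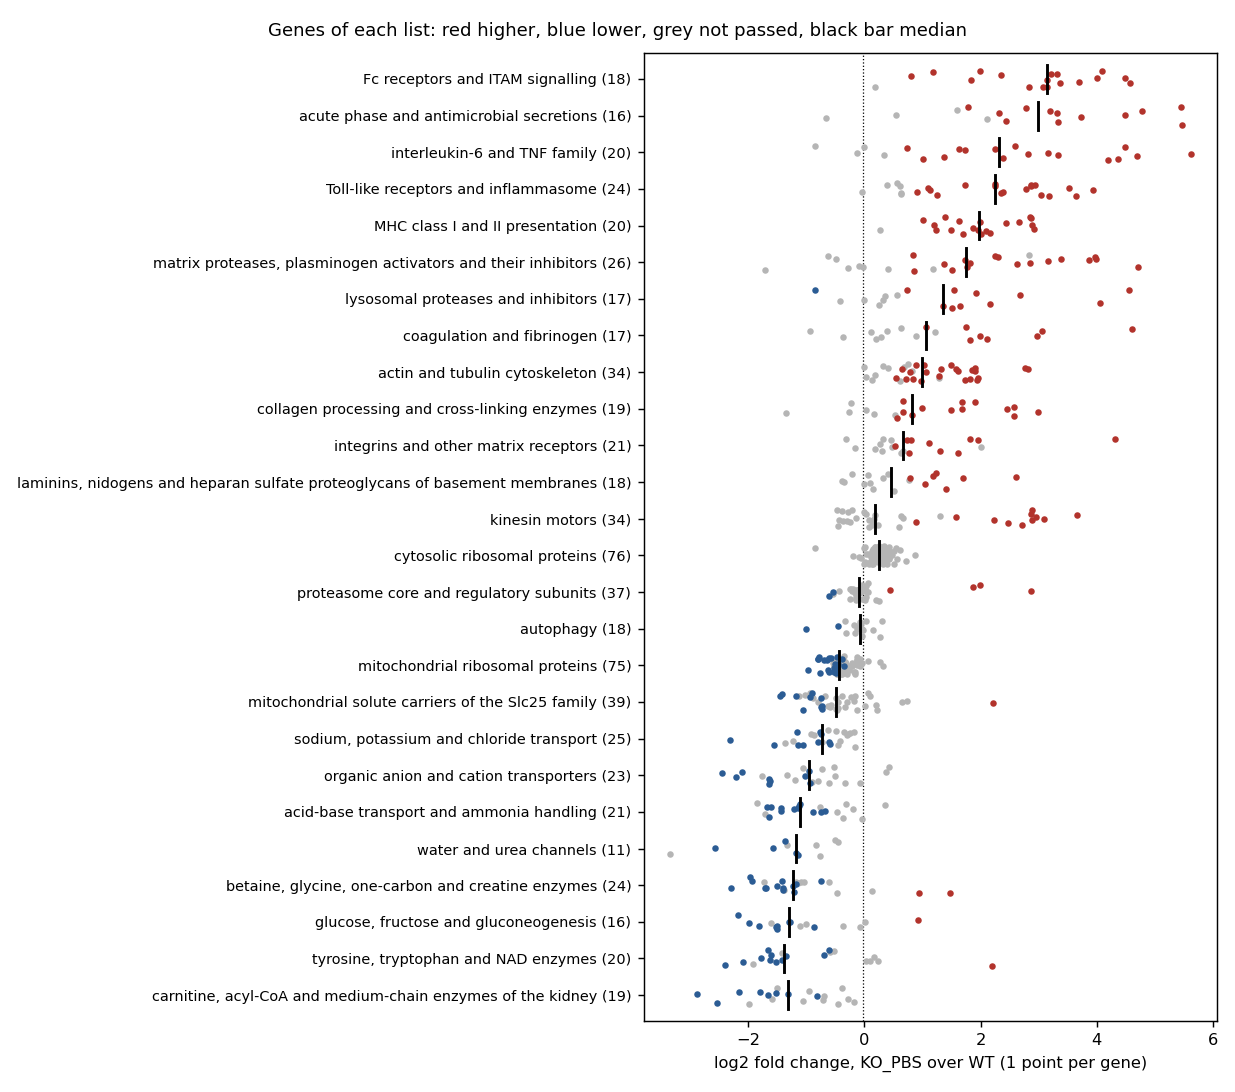
Log2 fold change of KO PBS over WT for each tested gene of 26 lists (number of genes in brackets), red if called higher, blue if called lower and grey if not passed, with a black bar at the median of each list and a dotted line at the median of all genes. Immune and matrix lists lie to the right, tubular transport and metabolism lists to the left, and the cytosolic ribosomal proteins form a narrow band without a call.

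The cytoskeleton list showed a broad rise of moderate size. Of 34 actin and tubulin genes, 23 rose and 0 fell (median 1.0; 17 in DESeq2 with the sex covariate). Tubb6 and Tubb5, beta-tubulins, rose by 1.95 and 1.93, Tubb5 from 71.0, 88.4 and 90.9 CPM to 399, 286 and 270. Arpc1b, a subunit of the complex that branches actin filaments, rose by 1.91, and Coro1a, an actin-binding protein of leukocytes, by 2.82. Actb itself had a log2 fold change of 0.81 and did not pass (edgeR adjusted p = 0.0835). Of 12 keratins 5 rose: Krt8 from 133, 210 and 189 CPM to 664, 481 and 465, and Krt7, Krt17, Krt19 and Krt20. Krt20 was at 0.253, 4.33 and 0.201 CPM in WT and 55.1, 39.2 and 59.7 in KO PBS. Of 22 annexins and S100 proteins, calcium-binding proteins of membranes and cytoplasm, 11 rose and 1 fell (median 1.18; 6 higher without KO PBS 1 and 5 in DESeq2 with the sex covariate), led by Anxa3 with 2.82.

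Kinesins are motors that move along microtubules, and members of the list differed. Of 34 kinesins, 11 rose and 0 fell, with a median of 0.18. Kif11, Kif22, Kif14, Kif2c, Kif15, Kif4, Kif20a and Kif18a, which act in mitosis or cytokinesis, rose by 0.89 to 3.09, of which Kif18a was called in 4 of 19 re-analyses. The motors of cargo transport Kif5b (-0.20), Kif1b (-0.15) and Kif3a (0.09) did not pass. Kif11 was at 1.01, 1.68 and 1.21 CPM in WT and at 8.06, 10.1 and 10.7 in KO PBS (2.88 ± 0.31, edgeR adjusted p = 0.00135), and Kif1a, known as a neuronal transport motor, at 0.338, 0.361 and 0.322 and at 3.75, 4.41 and 4.88. All knockout libraries lay above all WT libraries in both.

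The 250 bases before the start are printed for 3 rising kinesins, those with the lowest p that hold the letters TTTGAA. These letters are the core of the cell cycle homology region (CHR), a promoter element known from genes of mitosis. The 3 were chosen for holding the letters, and 1 of them, Kif1a, is the transport motor named above. The sequences are from RefSeq (GRCm38.p6) and capitals mark the letters on either strand: Kif1a (chr1:93082481-93082730, minus strand), Kif11 (chr19:37376132-37376381, plus strand) and Kif22 (chr7:127042421-127042670, minus strand).
Kif1a: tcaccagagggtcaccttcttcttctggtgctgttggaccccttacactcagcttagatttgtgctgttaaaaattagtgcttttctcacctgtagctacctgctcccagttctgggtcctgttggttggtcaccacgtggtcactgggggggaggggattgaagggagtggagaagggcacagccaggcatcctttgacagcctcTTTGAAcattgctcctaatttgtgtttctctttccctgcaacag
Kif11: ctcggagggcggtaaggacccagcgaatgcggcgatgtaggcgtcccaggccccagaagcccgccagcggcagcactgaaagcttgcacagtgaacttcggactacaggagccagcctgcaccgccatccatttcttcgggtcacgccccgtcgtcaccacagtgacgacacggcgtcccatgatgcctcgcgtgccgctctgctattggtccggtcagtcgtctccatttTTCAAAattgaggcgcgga
Kif22: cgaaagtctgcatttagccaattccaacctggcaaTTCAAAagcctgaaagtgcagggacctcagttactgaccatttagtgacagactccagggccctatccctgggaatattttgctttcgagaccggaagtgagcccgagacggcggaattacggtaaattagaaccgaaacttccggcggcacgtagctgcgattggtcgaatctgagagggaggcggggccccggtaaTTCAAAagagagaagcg
The letters begin 19 bases before the start in Kif11, 17 and 215 before it in Kif22, and 44 before it in Kif1a, in 1 of its 2 promoters. Over windows of 300 bases (250 before and 50 after the start), 17.9% of 32851 promoters held them on either strand. Counted by gene, over any of its promoters, 14.6% of genes tested with a promoter and 18.3% of those called higher held them. Of the kinesins with a promoter in the table, 7 of the 9 called higher and 3 of the 19 not passed held them. The choice of this motif was made among 13 searched on these lists, so the contrast is a description, and a match is neither a bound site nor a cause.

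Antigen presentation rose almost as a whole. Of 20 genes of MHC class I and II presentation, 19 rose and 0 fell, and H2-T23 (0.27) did not pass. The median was 1.97, all 19 were called whichever library was left out, and DESeq2 with the sex covariate also called 19. The class II chain H2-Aa was at 105, 119 and 110 CPM in WT and 1005, 690 and 779 in KO PBS (2.89 ± 0.33, edgeR adjusted p = 0.00136), and H2-Eb1 at 108, 119 and 118 and at 1050, 742 and 825. Cd74, the invariant chain that escorts class II molecules, rose by 2.44 and Ciita, their transcriptional activator, by 2.66. In the class I pathway, H2-K1 rose by 1.69, B2m by 1.2 and the peptide transporter Tap1 by 1.95. Near-identical class I genes can share reads, and their separate values are uncertain. The subunits of the immunoproteasome stood apart from the other proteasome genes: Psmb8 rose from 4.56, 6.01 and 5.67 CPM to 50.01, 35.1 and 32.9, Psmb9 by 1.99 and Psmb10 by 1.88. Of all 37 proteasome genes, these included, 4 rose and 2 fell, with a median of -0.08. That stands beside 14.6% higher and 9.85% lower among all genes tested.

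Class II promoters are known for a conserved module that ends in a CCAAT box close to the start, and the 250 bases before the start are printed for the 2 genes of the list with the lowest p that hold these letters, both class II chains, with CCAAT on either strand in capitals: H2-Aa (chr17:34287824-34288073, minus strand) and H2-Eb1 (chr17:34305617-34305866, plus strand).
H2-Aa: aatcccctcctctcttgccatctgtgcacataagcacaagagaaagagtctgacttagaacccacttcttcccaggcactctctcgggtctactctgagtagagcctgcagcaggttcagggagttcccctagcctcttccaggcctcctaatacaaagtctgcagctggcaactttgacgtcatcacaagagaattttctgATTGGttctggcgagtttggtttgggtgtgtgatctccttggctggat
H2-Eb1: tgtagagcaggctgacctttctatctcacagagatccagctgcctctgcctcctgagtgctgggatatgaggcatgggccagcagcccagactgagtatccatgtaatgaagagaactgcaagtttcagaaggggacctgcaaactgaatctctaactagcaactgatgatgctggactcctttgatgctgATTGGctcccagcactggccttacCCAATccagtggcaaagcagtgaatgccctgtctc
The letters begin 48 bases before the start in H2-Aa and 59 and 35 bases before it in H2-Eb1. They are frequent, in 37.4% of all promoters of 300 bases. Counted by gene, over any of its promoters, 42.2% of genes tested with a promoter and 40.3% of those called higher held them. Promoters were found for 15 of the 20 genes of the list only, and no count over the whole list is given.

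The receptors of innate immune cells rose nearly as a whole. Of 18 Fc receptors and kinases or adaptors of the ITAM pathway, which relay antibody binding into myeloid cells, 17 rose and 0 fell (median 3.14; 15 in DESeq2 with the sex covariate). Tyrobp, an adaptor of this pathway, was at 3.63, 6.13 and 5.31 CPM in WT and 65.0, 42.1 and 43.5 in KO PBS, and Fcgr3, an IgG receptor, at 2.19, 3.41 and 2.69 and at 62.4, 35.1 and 35.2. Plcg2 (0.19) did not pass. Of 24 Toll-like receptor and inflammasome genes, 18 rose and 0 fell (median 2.25; 13 in DESeq2 with the sex covariate). Tlr2, a receptor for bacterial lipoproteins, rose from 5.36, 7.30 and 5.59 CPM to 47.8, 43.5 and 59.0, Nlrp3, an inflammasome sensor, by 2.94 and Il1b by 3.18. Tlr3, Tlr4 and Tlr5 had log2 fold changes of 0.38 to 0.64 and did not pass. Of 10 NADPH oxidase genes, the phagocyte subunits Ncf1, Ncf4 and Cybb and the GTPase Rac2 rose by 2.86 to 3.62 and Duox1 fell, whereas Nox4, the oxidase of the tubule, had a log2 fold change of -0.90 and did not pass.

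Cytokines of the interleukin-6 and TNF families and their receptors rose in 16 of 20 cases, with 0 lower (median 2.32; 13 higher and 1 lower in DESeq2 with the sex covariate). Osmr, the receptor of oncostatin M, rose from 8.65, 12.3 and 13 CPM to 82.2, 73.5 and 49.7, and Socs3, a feedback inhibitor of this pathway, from 2.53, 5.81 and 3.42 to 96.5, 60.0 and 59.9 (4.2 ± 0.38, edgeR adjusted p = 0.00135). The non-canonical NF-kB subunits Relb and Nfkb2 rose by 2.39 and 1.72. Of 17 coagulation genes 8 rose and 0 fell (median 1.05; 9 higher and 1 lower in DESeq2 with the sex covariate), among them all 3 fibrinogen chains. Fgb was at 0.253, 0.281 and 0.201 CPM in WT and 3.51, 6.81 and 7.77 in KO PBS, Fgg rose by 2.96 and Fga by 1.99. The thrombin receptor F2r rose by 2.11 and tissue factor, F3, by 1.82.

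Acute phase proteins are secreted in inflammation, chiefly by the liver. Of 16 such genes and antimicrobial secretions, 12 rose and 0 fell (median 2.98; 7 to 12 when any library was left out, and 7 in DESeq2 with the sex covariate). Cp, the copper carrier ceruloplasmin, rose from 69.8, 128 and 81.6 CPM to 663, 402 and 448 (2.44 ± 0.38), and Lbp, which binds lipopolysaccharide, from 4.94, 5.09 and 6.76 to 55.3, 28.3 and 31.5. Orm2 was near absent in WT, at 0.0422, 0.0401 and 0 CPM, and at 0.959, 0.668 and 0.963 in KO PBS. Defb1, a constitutive defensin of the tubule, had a log2 fold change of -0.65 and did not pass.

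C/EBP factors are known to bind promoters of acute phase genes, and the 250 bases before the start of the 2 members with the lowest p that hold TTGCNNAA, a C/EBP consensus, are printed with the letters in capitals: Orm2 (chr4:63362199-63362448, plus strand) and Cp (chr3:19956999-19957248, plus strand), again from RefSeq (GRCm38.p6).
Orm2: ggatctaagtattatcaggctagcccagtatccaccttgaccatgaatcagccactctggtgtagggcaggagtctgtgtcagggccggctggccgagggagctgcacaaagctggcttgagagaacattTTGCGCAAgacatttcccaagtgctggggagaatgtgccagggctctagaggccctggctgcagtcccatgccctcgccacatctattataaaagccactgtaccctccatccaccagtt
Cp: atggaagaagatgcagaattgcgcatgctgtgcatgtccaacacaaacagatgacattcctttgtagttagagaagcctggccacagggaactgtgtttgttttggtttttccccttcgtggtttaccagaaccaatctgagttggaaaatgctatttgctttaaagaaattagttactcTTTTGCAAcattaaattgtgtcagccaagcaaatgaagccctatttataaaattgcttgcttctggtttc
The letters begin 120 bases before the start in Orm2 and 70 before it in Cp, and 10.8% of all promoters of 300 bases held them on either strand. Of 11 called genes of the list with a promoter, 6 held them, and 1 of the 2 that did not pass. Counted by gene, over any of its promoters, 10.5% of genes tested with a promoter and 12.3% of those called higher held them. The motif was 1 of 13 searched on these lists, so the count is a description. A match is neither a bound site nor a cause.

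Lysosomal proteases rose in 10 of 17 cases and fell in 1 (median 1.36; 0.88 with the sex covariate). Ctss, the protease of antigen-presenting cells, was at 5.65, 12.7 and 5.83 CPM in WT and 166, 121 and 114 in KO PBS. Ctsl rose by 1.51 and Ctsd by 1.55, while Ctsf was lower (-0.85) and called in 12 of 19 re-analyses. Autophagy genes stood beside them with 0 of 18 higher and 2 lower, Gabarapl1 (-1.0) and Atg12 (-0.45, called in 6 of 19 re-analyses), and a median of -0.07. The shares over all genes tested were 14.6% higher and 9.85% lower. Of 25 genes of cell death and p53 response, 9 rose and 0 fell (4 without KO PBS 1 and 5 in DESeq2 with the sex covariate). Birc3, an inhibitor of apoptosis, rose by 2.65 and Mlkl, the effector of necroptosis, by 2.57, while Bax (0.64) did not pass.

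Some transporters of the proximal tubule, the segment that recovers most of the filtrate, fell. Of 23 organic anion and cation transporters, which clear drugs and metabolites, 9 fell and 0 rose (median -0.95; 5 without KO PBS 1 and 4 in DESeq2 with the sex covariate). Slc22a4, a carnitine and ergothioneine transporter, was at 93.5, 94.9 and 86.1 CPM in WT and 21.5, 30.1 and 38 in KO PBS (-1.62 ± 0.26, edgeR adjusted p = 0.00367). Slc22a8, the organic anion transporter OAT3, was at 1102, 463 and 967 CPM and at 39.8, 182 and 241, and was called in 13 of 19 re-analyses. Groups did not overlap in either gene, and KO PBS 1 was the lowest library in both.

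Amino acid and peptide transporters fell in 8 of 24 cases and rose in 1 (median -0.86; 4 lower without KO PBS 1 and 2 in DESeq2 with the sex covariate). Slc6a18, a transporter of neutral amino acids in the brush border, was at 760, 531 and 766 CPM in WT and 191, 261 and 316 in KO PBS, and the peptide transporter Slc15a2 fell by 1.45. The exception was Slc7a5, the large neutral amino acid transporter of growing cells, which rose from 3.75, 4.61 and 4.18 CPM to 15.6, 15.0 and 14.2 (1.83 ± 0.23). Of 16 genes of glucose and fructose handling 9 fell and 1 rose (median -1.29; 6 lower without KO PBS 1 and 4 in DESeq2 with the sex covariate). Khk, which starts fructose breakdown, was at 710, 678 and 891 CPM in WT and 109, 222 and 244 in KO PBS. Pck1, the cytosolic enzyme that commits to gluconeogenesis, fell by 2.17 while its mitochondrial counterpart Pck2 rose by 0.92, from 23.6, 21.1 and 27.6 CPM to 48.9, 39.6 and 48.4. The glucose transporter Slc5a2 had a log2 fold change of -1.0 and did not pass (edgeR adjusted p = 0.0666).

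Of 23 genes of mineral handling 4 rose and 4 fell, where 14.6% of all genes tested rose and 9.85% fell (median -0.10; 3 higher and 2 lower without KO PBS 1, 2 higher and 1 lower in DESeq2 with the sex covariate). S100g, an intracellular calcium buffer of the distal tubule, fell from 700, 499 and 697 CPM to 131, 150 and 130 (-2.21 ± 0.29, edgeR adjusted p = 0.00175), and Calb1, another such buffer, by 2.06. Slc34a2, a phosphate transporter known from lung and gut, rose from 9.91, 15.1 and 11.3 CPM to 108, 70.7 and 67.1, in contrast to the fall of its kidney homologue Slc34a1. Cyp27b1, which activates vitamin D, rose from 5.57, 16.2 and 29.2 CPM to 124, 107 and 100. Kl, the FGF23 co-receptor klotho, had a log2 fold change of -1.43 and did not pass (edgeR adjusted p = 0.0821), and its WT libraries were spread at 831, 346 and 216 CPM. Of 15 genes of protein endocytosis 4 fell (2 without KO PBS 1), among them the receptors Lrp2 (-1.96) and Cubn (-1.42). Lrp2 was at 3177, 1174 and 1349 CPM in WT and 197, 544 and 721 in KO PBS. Lrp2 was called in 13 and Cubn in 9 of 19 re-analyses, and DESeq2 with the sex covariate called neither (adjusted p = 0.23 and 0.32).

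The loop of Henle and the distal nephron followed the same direction. Of 25 genes of sodium, potassium and chloride transport, 10 fell and 0 rose (median -0.74, and -0.40 with the sex covariate; 6 without KO PBS 1, and 5 in DESeq2 with the sex covariate). Bsnd, a subunit of chloride channels of the loop, was at 115, 94.1 and 91.2 CPM in WT and 28.3, 28.7 and 45.5 in KO PBS (-1.55 ± 0.26, edgeR adjusted p = 0.00404). Slc12a1, the cotransporter blocked by furosemide, fell from 1986, 1250 and 1690 CPM to 313, 550 and 587. Umod, the uromodulin of the same segment, had a log2 fold change of -0.42 and overlapped between groups (4654, 2880 and 3027 CPM in WT, 1591, 2869 and 3416 in KO PBS). Slc12a3, the thiazide-sensitive cotransporter of the distal convoluted tubule, did not pass with -1.37, and its WT libraries were at 909, 198 and 225 CPM.

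Acid-base transport was the transport list with the most calls, with 12 of 21 genes lower and 0 higher (median -1.11, and -0.68 with the sex covariate; 8 without KO PBS 1 and 6 in DESeq2 with the sex covariate). Rhbg and Rhcg, ammonia channels of the collecting duct, fell by 1.64 and 1.44, Rhbg from 63.0, 35.2 and 54.6 CPM to 13.9, 15.5 and 19.7. Atp6v1g3, a proton pump subunit of intercalated cells, fell by 1.13. Among 11 water and urea channels 5 fell, but 1 without KO PBS 1. Aqp11 fell from 37.3, 31.0 and 33.0 CPM to 6.33, 13 and 14.9. Aqp4, of the basolateral membrane, fell by 2.57 (12 of 19 re-analyses), and Aqp2, the vasopressin-regulated channel, did not pass (-0.77, edgeR adjusted p = 0.152). Junction proteins were mixed, with 6 of 24 higher and 2 lower (4 and 1 without KO PBS 1, 2 and 1 in DESeq2 with the sex covariate). Among all genes tested 14.6% rose and 9.85% fell. Cldn1 rose from 39.8, 24.3 and 22.2 CPM to 137, 113 and 121 and Cldn4 by 1.74, while Cldn10 fell from 243, 192 and 221 to 54.8, 104 and 93.5.

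Enzymes of one-carbon metabolism, glycine and creatine fell in 13 of 24 cases and rose in 2 (median -1.22; 9 lower in DESeq2 with the sex covariate and 9 without KO PBS 1). Ahcy, which hydrolyses S-adenosylhomocysteine, was at 411, 524 and 605 CPM in WT and 112, 202 and 231 in KO PBS, and Gcsh, a protein of the glycine cleavage system, fell by 1.40. The 2 that rose work in the synthesis of serine and its use for one-carbon units: Mthfd2, a mitochondrial folate enzyme, went from 4.39, 7.26 and 3.38 CPM to 13.3, 15.1 and 13.2 (1.47 ± 0.29), and Phgdh rose by 0.95. Gatm, which starts creatine synthesis, had a log2 fold change of -1.73 and did not pass (edgeR adjusted p = 0.0626).

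Tyrosine, tryptophan and NAD enzymes fell in 11 of 20 cases and rose in 1 (median -1.38, and -0.73 with the sex covariate, where DESeq2 called 5 lower; 6 without KO PBS 1). Fah, the last enzyme of tyrosine breakdown, was at 357, 394 and 467 CPM in WT and 89.1, 154 and 158 in KO PBS, and Haao, which makes the precursor of quinolinate, fell by 2.09. Nnmt, which methylates nicotinamide, rose from 0.717, 0.922 and 0.442 CPM to 4.25, 3.04 and 2.24. Of 19 carnitine, acyl-CoA and medium-chain enzymes 8 fell and 0 rose (median -1.31; 8 in DESeq2 with the sex covariate and 5 without KO PBS 1). Acsm1, a medium-chain acyl-CoA synthetase, was at 443, 194 and 361 CPM in WT and 37.3, 46.4 and 52.0 in KO PBS (-2.88 ± 0.41, edgeR adjusted p = 0.00218). Bdh1, of ketone body metabolism, fell by 1.80.

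Of 29 cytochrome P450 and epoxide enzymes 9 fell and 4 rose (median -0.98; 2 lower without KO PBS 1). Cyp1b1 rose from 28, 18.8 and 19.6 CPM to 93.6, 101 and 82.2. Of 32 conjugation enzymes 10 fell and 1 rose (median -0.81; 6 lower without KO PBS 1, and 5 lower and 4 higher in DESeq2 with the sex covariate), with Gstk1, a mitochondrial and peroxisomal glutathione transferase, from 90.3, 84.8 and 125 CPM to 22.2, 30.6 and 28.7. Of 26 glycolysis genes 5 rose and 6 fell (3 and 3 without KO PBS 1, 3 and 2 in DESeq2 with the sex covariate). Among all genes tested the shares were 14.6% higher and 9.85% lower. The hexokinases Hk2 and Hk3 rose by 2.71 and 2.57 while the muscle-type phosphofructokinase Pfkm fell by 1.01 and the aldolase Aldoc by 2.13. Among 29 lipid genes, 3 rose and 2 fell (2 and 0 without KO PBS 1), where 14.6% of all genes tested rose and 9.85% fell. Abca1, which exports cholesterol, rose from 37.0, 33.0 and 23.9 CPM to 119, 100 and 88.5, and the scavenger receptor Msr1 by 4.14.

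Of 75 mitochondrial ribosomal protein genes 22 fell and 0 rose, with a median of -0.43. In 56 of them every KO PBS library lay below every WT library. Over all genes tested, groups did not overlap in 43.1%, which counts both directions and is not a like measure. The count of genes called lower ran from 2 (without KO PBS 1) to 38 when single libraries were left out. It was 2 with library size as the only scaling, and 1 in DESeq2 with the sex covariate. Mrpl46 was at 40.1, 37.9 and 45.2 CPM in WT and 24.5, 25.9 and 25.7 in KO PBS. Of 76 cytosolic ribosomal protein genes edgeR called 0 in either direction (median 0.26), DESeq2 called 4 higher, and edgeR with library size as the only scaling 11 higher; many of these genes share reads with pseudogenes. Of 39 mitochondrial carriers of the Slc25 family 10 fell and 1 rose (median -0.49; 4 lower without KO PBS 1). The exception, Slc25a24, an ATP-magnesium carrier, rose from 6.58, 11.7 and 7.60 CPM to 45.7, 37.1 and 36.5.

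Some genes often used as references in quantitative PCR changed. Of 20, 5 rose and 3 fell, where 14.6% of all genes tested rose and 9.85% fell. The median was 0.11, and 3 rose and 1 fell without KO PBS 1. DESeq2 with the sex covariate called 2 higher and 1 lower. Tubb5 rose by 1.93, B2m by 1.2 and Gusb by 1.18, Gusb from 25.9, 34.0 and 20.5 CPM to 61.0, 59.2 and 62.1. Tfrc, the transferrin receptor, fell from 87.4, 81.1 and 55.7 CPM to 26.1, 27.7 and 32.1. Gapdh (-0.49), Actb (0.81), Ppia (0.04), Ywhaz (0.07) and Tbp (-0.16) did not pass. The genes with the narrowest interval around 0 among abundant genes were Nfu1, Gsk3a, Eif2a, Med24, Chd8, Wtap, Psmd7, Tbl1xr1, Tfip11 and 4121402D02Rik (Msl1 in RefSeq). Nfu1, an iron-sulfur cluster assembly factor, was at 36.9, 38.5 and 36.3 CPM in WT and 37.0, 36.7 and 37.9 in KO PBS, with a 95% interval from -0.22 to 0.21 on the log2 scale.

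Among 32 transcription factors of nephron identity and repair 10 rose and 4 fell (median 0.35; 2 lower without KO PBS 1). Sox9, a factor of regenerating tubule, was at 2.07, 1.6 and 0.643 CPM in WT and 30.3, 19.9 and 16.8 in KO PBS (3.96 ± 0.57, edgeR adjusted p = 0.00225), Myc rose from 4.81, 6.34 and 5.83 to 56.7, 48.6 and 29.8, and Runx1 by 3.13. Hnf4a, a factor of proximal tubule identity, had a log2 fold change of -0.60 and did not pass (edgeR adjusted p = 0.113). Of 22 nuclear receptors and coactivators 4 fell and 0 rose (1 lower without KO PBS 1, and 1 in DESeq2 with the sex covariate). Esrra, a regulator of mitochondrial genes, fell from 147, 129 and 150 CPM to 66.5, 77.8 and 88.5. The growth factor list had 4 of 21 genes higher, among them the EGF receptor ligands Areg and Nrg1, and 4 lower, among them Egf itself (1 and 0 in DESeq2 with the sex covariate). Nrg1 rose from 3.0, 3.85 and 2.05 CPM to 12.7, 11.9 and 14.2. Over all genes tested 14.6% rose and 9.85% fell, shares to be set beside each list here. Of 22 genes of the BMP pathway 4 rose and 2 fell (0 to 4 higher when single libraries were left out, 1 higher in DESeq2 with the sex covariate). Id4, a target of this pathway, fell from 28.6, 21.1 and 32.7 CPM to 5.81, 6.68 and 7.42. Vasoactive systems had 4 of 20 genes higher and 5 lower (2 and 3 without KO PBS 1, 4 and 3 in DESeq2 with the sex covariate). Edn1, the vasoconstrictor endothelin, rose from 3.0, 4.97 and 3.06 CPM to 71.0, 30.9 and 17.7, and Corin, a protease that activates natriuretic peptides, fell from 16.2, 11.9 and 34.9 to 1.07, 3.07 and 3.45.

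Since the series also tested an inhibitor of miR-21, genes named as its targets were listed with the gene that hosts it. Of 15 genes 5 rose and 1 fell, and 2 rose without KO PBS 1. The median was 0.24, against -0.03 over all genes tested, of which 14.6% rose and 9.85% fell. The host gene, listed as Tmem49 and named Vmp1 today, was at 107, 187 and 129 CPM in WT and 420, 264 and 201 in KO PBS (1.07 ± 0.30; called in 12 of 19 re-analyses). Mpv17l, a mitochondrial and peroxisomal membrane protein, fell from 1051, 1106 and 1076 CPM to 60.3, 294 and 174 (-2.61 ± 0.55, edgeR adjusted p = 0.0105). The target Pdcd4 (-0.32) did not pass, and Tpm1 and Tgfbr2 rose by 1.81 and 1.13. Levels of miR-21 itself were not analysed here.

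The stress, clock and prostaglandin counts that follow stand beside 14.6% higher and 9.85% lower among all genes tested. Of 18 heat shock genes 2 rose and 4 fell (median -0.30, and -0.56 with the sex covariate; 0 lower without KO PBS 1 and 1 with library size as the only scaling), with the mitochondrial chaperonin Hspd1 at -1.05 and the small heat shock protein Hspb8 at 1.61. Of 16 hypoxia genes 1 rose and 3 fell (0 and 2 without KO PBS 1), and Vegfa, the endothelial growth factor, fell from 214, 187 and 244 CPM to 85.5, 106 and 102. Of 19 clock genes 1 rose and 2 fell (median -0.55, and -0.64 with the sex covariate; 1 to 5 lower when single libraries were left out). Hlf was at 117, 114 and 115 CPM in WT and 19.7, 33.8 and 52.5 in KO PBS, and the labels used here give no time of day. The prostaglandin list had 4 of 21 genes higher and 3 lower (3 and 1 without KO PBS 1), with Alox5ap, needed for leukotrienes, higher by 3.06 and the prostaglandin receptor Ptger3 lower, from 95.3, 57.2 and 76.8 CPM to 17.8, 31.7 and 24.1.

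Markers of cell types moved alongside these lists, and their part in the results above was not tested. Their counts stand beside 14.6% higher and 9.85% lower among all genes tested. All 10 proximal tubule markers tested had negative log2 fold changes and 7 fell (1 to 7 when single libraries were left out, 2 in DESeq2 with the sex covariate), with summed levels of 15208, 11842 and 12221 CPM in WT and 2009, 5173 and 6269 in KO PBS. KO PBS 1 was the lowest. Macrophage markers rose in 7 of 8 cases (C1qb by 3.58, Mrc1 by 3.48) and summed to 160, 183 and 193 CPM in WT and 772, 616 and 625 in KO PBS, whereas Csf1r, the receptor of the macrophage growth factor, had a log2 fold change of 0.29 and did not pass. All 7 T cell markers rose, in sum from 4.30, 5.89 and 5.99 CPM to 17.5, 21.5 and 20.5 (3 to 7 when single libraries were left out, 2 in DESeq2 with the sex covariate). Fibroblast markers rose in 4 of 6 cases, in sum from 213, 193 and 171 CPM to 1382, 1718 and 1326. Podocyte markers summed to 448, 240 and 435 CPM in WT and 356, 469 and 478 in KO PBS: 2 of 7 rose (4 in DESeq2 with the sex covariate, where the median of 0.52 became 1.15), Nphs1 (-0.06) and Podxl (0.04) did not pass, and WT 2 was the lowest library. Endothelial markers summed to 411, 394 and 452 CPM in WT and 245, 376 and 286 in KO PBS, with 1 of 7 lower (0 without KO PBS 1). Erythroid markers summed to 121, 144 and 136 CPM in WT and 9.67, 25.6 and 30.5 in KO PBS, with 1 of 4 higher and 2 lower (0 and 1 without KO PBS 1). Epb4.2, a red cell membrane protein, rose by 2.37, while the globin Hbb-b1 fell by 3.23 and Slc4a1, an anion exchanger also made in the collecting duct, by 2.61; Hba-a2, a globin outside the list, fell by 3.41, and near-identical globin copies can share reads. Urothelial markers, which show how much renal pelvis a piece holds, summed to 30.3, 147 and 85.6 CPM in WT and 176, 162 and 101 in KO PBS, with 0 of 6 past the threshold in edgeR and 0 in DESeq2.

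**Figure D5:**
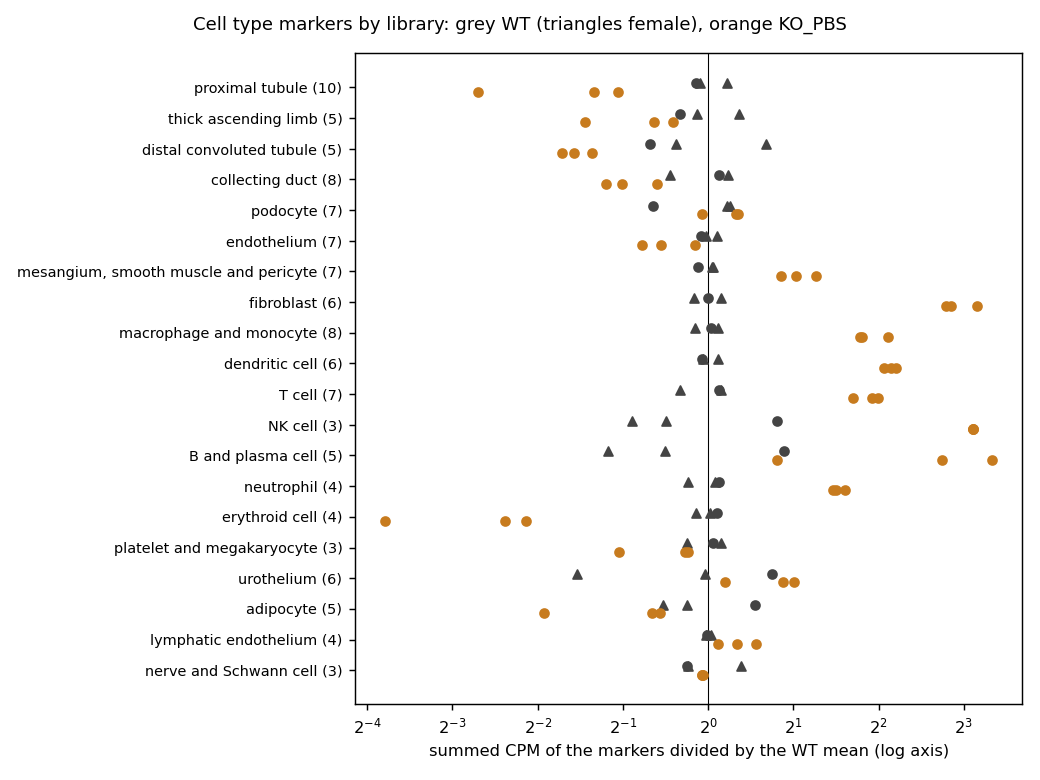
Summed CPM of the markers of 20 cell types in each WT (grey) and KO PBS (orange) library, divided by the WT mean and drawn on a log axis. In KO PBS, sums of tubule and erythroid markers lie below the WT mean and those of fibroblasts and leukocytes above it, and podocyte sums overlap between groups.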

How the data were processed

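The deposited per-library tables hold expected counts per gene symbol made by the authors with RSEM and Bowtie on mm9, per the submitters' processing notes; versions are not given in the sources used here. A deposited log2 matrix, named voom-normalized, equals log2 CPM plus 1 constant per library. Expected counts were rounded to whole numbers. Genes were filtered with filterByExpr, scaled by TMM and tested with edgeR 4.0.16 (quasi-likelihood F test, R 4.3.3) in 1 fit of all 9 libraries with 3 group means; calls are at a Benjamini-Hochberg adjusted p under 0.05. CPM values use TMM-scaled library sizes unless deposited. DESeq2 1.42.0 and limma 3.58.1 served as alternatives. The procedure was checked on simulated counts with far fewer changed genes than were called here and with no sex effect. That check therefore does not cover the imbalance of the sexes. Sex was called male at a summed Y-linked level of at least 10 CPM (Ddx3y, Eif2s3y, Kdm5d, Uty).

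Named genes are Col4a3; the 10 higher and 10 lower with the largest CPM difference, and with the largest log2 fold change at a mean of at least 5 log2 CPM, without overlap; 5 near absent in each group; 3 per list by p; and the 10 with the narrowest interval around 0. Other list members are named by their values. Some genes that this rule selects are not reported here. The members and lists were chosen with earlier results of these data known. Promoters are RefSeq windows (GRCm38.p6) matched by symbol, for 11703 of 17315 genes tested; the mm9 coordinates of the counts were not used. Replicate numbers do not pair libraries: deviations of same-numbered WT and KO PBS libraries correlated at -0.33, 0.17 and -0.37. No 2 libraries of a group agreed within sampling noise (chi-square per gene at least 31.1).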

Additional observations from a re-analysis of the deposited data

How the results depend on the processing

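The count of higher genes (2521) and of lower genes (1705) was recomputed under 19 alternatives of scaling, test, filter, covariate or libraries, and under 4 chosen after seeing the data (DESeq2 and limma, each with sex as a covariate or with male libraries only). Lower counts moved by over 1.5 times with library size as the only scaling (904), with the library code as a covariate (1076) and with the replicate block (1129, beside 2076 higher). With sex as a covariate, and with male libraries only, edgeR called 0 higher and 0 lower genes. The added fits gave 1713 higher and 704 lower (DESeq2, sex), 1684 and 590 (DESeq2, male only), 982 and 84 (limma, sex) and 848 and 58 (limma, male only); the cause was not tested. When single libraries were left out the higher count ran from 1756 to 2497 and the lower from 667 to 1855, both lowest without KO PBS 1. The replicate numbers do not pair the libraries. Of the 277 named genes under 23 alternatives, 5179 values stayed on the same side of the threshold, 1111 lost the call and 35 gained it. Of the values of these 277 genes called in either fit, 0 reversed direction. Among all 4226 genes called, 7 changed sign with sex as a covariate. Changes of sign in genes called in neither fit were not counted, and some of these genes did change sign. None of the 238 called genes kept its call in every alternative, since both edgeR fits with sex held apart called 0. Counts of lists stayed within 1.5 times in 2779 cases and moved in 901. With 3 libraries a group, and 1 male WT library, the precision of any comparison within a sex is limited by the number of libraries.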
